A study of Mus musculus with 2 samples.

Results

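The Rab GTPases form the largest branch of the small GTPases, and each member marks a particular membrane of the cell. A Rab switches between a GDP-bound form kept soluble by a GDP dissociation inhibitor and a GTP-bound form on the membrane, where it recruits effectors that move, tether and fuse vesicles. Lipid groups attached to cysteines at the C terminus anchor the protein, and in neurons Rab3 proteins sit on synaptic vesicles and take part in regulated release.

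Members were taken by gene symbol, as genes named Rab followed by a number, with at most a letter and a digit after it, that have a protein-coding transcript. This gave 59 genes among 55536 annotated genes, and all 59 belonged to the 22015 nuclear protein-coding genes. Total RNA was measured in the hippocampus of female B6CASTF1/J mice, offspring of a laboratory and a wild-derived strain, at 10 days of age. There was 1 group of 2 libraries, biological replicates 1 and 2, each made from 300 ng of RNA of a pool of 3 females, with ribosomal RNA reduced and ERCC spike-ins added. The labels call the tissue a layer of the hippocampus and do not say which layer, and each pool hides the spread between animals. No treatment, genotype or age differed between the libraries, so the results are levels in this tissue and the difference of replicate 1 from replicate 2.

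Replicate 1 held 29858328 expected counts and replicate 2 held 32275110. Levels are in TPM, a length-corrected abundance in which every library has the same total, from the gene table estimated from alignments (the alignment-based table), given as replicate 1 and replicate 2 or as mean ± SD (n = 2). All 8 defining markers of hippocampal and glutamatergic neurons were above a TPM of 10 in both libraries, with Camk2a at 616.8 and 781.1 and Nrgn at 626 and 716. The libraries stood apart in myelin genes: 10 of 12 markers of myelinating oligodendrocytes were higher in replicate 2 by the library test described below, and their summed level was 212 TPM in replicate 1 against 615 TPM in replicate 2. Ttr, the transthyretin of the choroid plexus, stood at 422 and 670.07 TPM, and Folr1, the next highest choroid plexus marker, at 7.51 and 7.71 TPM. Of the 4 choroid plexus markers, Ttr was the only 1 past the adjusted p of the library test. In bulk tissue, fewer cells of a type and less RNA per cell cannot be told apart.

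The ends of the coding sequences show the feature that family members share beyond their names. The last 30 bases, 5′ to 3′ with the stop codon, are given for the coding transcript with the highest mean TPM, from GENCODE M21, with the cysteine codons among the last 4 codons in capitals; these cysteines are where the lipid is attached. Members of several routes and with different kinds of end were chosen for display, and Rab11a is shown for 2 transcripts.
Rab3a-201: gcgccacctcatcaggatTGTgccTGCtga
Rab6b-201: ccggccagcgagggcggcTGCtccTGTtaa
Rab6a-201: ccagtcaatgaaggcggcTGTtccTGCtaa
Rab1a-201: gtcaagcagtcaggtggaggcTGCTGCtaa
Rab10-201: gtgacgggctggaagagcaagTGCTGCtga
Rab5c-202: gccagccggagccagTGCTGCagcaactga
Rab7-205: aaggcctccgcagaaagcTGCagtTGTtga
Rab8a-201: accagcttcttccggTGCagtctcctgtga
Rab11a-208: ccaaaggtgcagtgcTGTcagaacatctaa
Rab11a-206: aagaatgaagcaaatgtcagacagacgtga

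Cysteine codons closed nearly every member. At least 1 of the last 4 codons was a cysteine codon in 58 of 59 Rab genes (98.3%), against 2265 of 21505 nuclear protein-coding genes with a complete coding sequence (10.5%). At least 2 were present in 44 Rab genes (74.6%), against 1.35% of those genes. Both cysteine codons stood apart by 1 codon, as in Rab3a, Rab6b and Rab7, in 20 members, and side by side at the very end, as in Rab1a and Rab10, in 15. A cysteine codon in the fourth-last place with none in the third-last, as in Rab8a, occurred in 14 members, and a pair of them followed by 2 other codons, as in Rab5c, in 6. Another 3 members had a pair followed by 1 codon. The exception was Rab11a, whose transcript with the highest mean TPM, Rab11a-206, ended with no such codon, while its longest coding transcript, Rab11a-208, had one. With the longest coding sequence of each gene, all 59 members had a cysteine codon there. In some of the 14 members classed with Rab8a, such as Rab11b, Rab21, Rab25, Rab30 and Rab37, another cysteine codon stood just before the last 4. The printed end of Rab11a-208 has one there too. These lay outside the search, so the counts of 44 and 14 hold for the last 4 codons alone.

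The second shared stretch was the switch II box near the nucleotide, a run of 7 codons for tryptophan, aspartate, threonine, alanine, glycine, glutamine and glutamate. It was searched in frame on the coding strand with all synonymous codons, and is shown in capitals with 3 bases on each side for members whose results are compared below, since synonymous bases differ between closely related copies.
Rab3a-201: atcTGGGACACAGCAGGGCAAGAGcgg
Rab3b-201: ataTGGGACACAGCTGGGCAAGAGcgg
Rab3c-201: attTGGGACACAGCAGGCCAGGAAaga
Rab3d-201: attTGGGACACAGCAGGCCAGGAGcgc
Rab6b-201: ctcTGGGACACTGCTGGGCAAGAGagg
Rab6a-201: ttaTGGGACACAGCAGGTCAAGAGcgg
Rab11b-203: atcTGGGACACTGCTGGCCAGGAGcgc
Rab11a-206: ataTGGGACACAGCAGGGCAGGAGcgg

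This run was present in 49 of 59 Rab genes (83.1%) and in 15 of 21446 other protein-coding genes (0.0699%), among them the small GTPase genes Rac1, Rhoa and Ran. The 10 members without this exact run were Rab7b, Rab20, Rab24, Rab25, Rab28, Rab29, Rab32, Rab38, Rab40b and Rab40c. A member with a different residue at any place of the run counts as without it. The search used the coding transcript with the highest mean TPM and was not repeated on the longest coding sequences. For Rab7b the sequence searched, of Rab7b-201, has 157 codons, and the longest, of Rab7b-202, has 199. The longest run of identical bases between the coding sequences of a pair of related members ranged from 11 to 38 bases over the 21 pairs compared below, with a median of 18, and reached 31 in 2 pairs.

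Rab genes as a family were widely transcribed in this tissue. A TPM of 1 or more in both libraries was reached by 50 of 59 Rab genes (84.7%), against 59.1% of nuclear protein-coding genes. A TPM of 10 was reached by 41 Rab genes (69.5%, against 36.3%), a TPM of 50 by 17 (28.8%, against 9.03%) and a TPM of 100 by 8 (13.6%, against 3.6%). The median level of the 59 genes was 18.6 ± 0.113 TPM, against 3.76 ± 0.269 TPM for nuclear protein-coding genes. Together the Rab genes held 2452 TPM in replicate 1 and 2458 TPM in replicate 2, which was 0.543% and 0.552% of all nuclear protein-coding TPM. Rab3a alone made up 10.7% of that sum, the 5 highest members 36.9% and the 10 highest 57.8%.

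**Figure D1:**
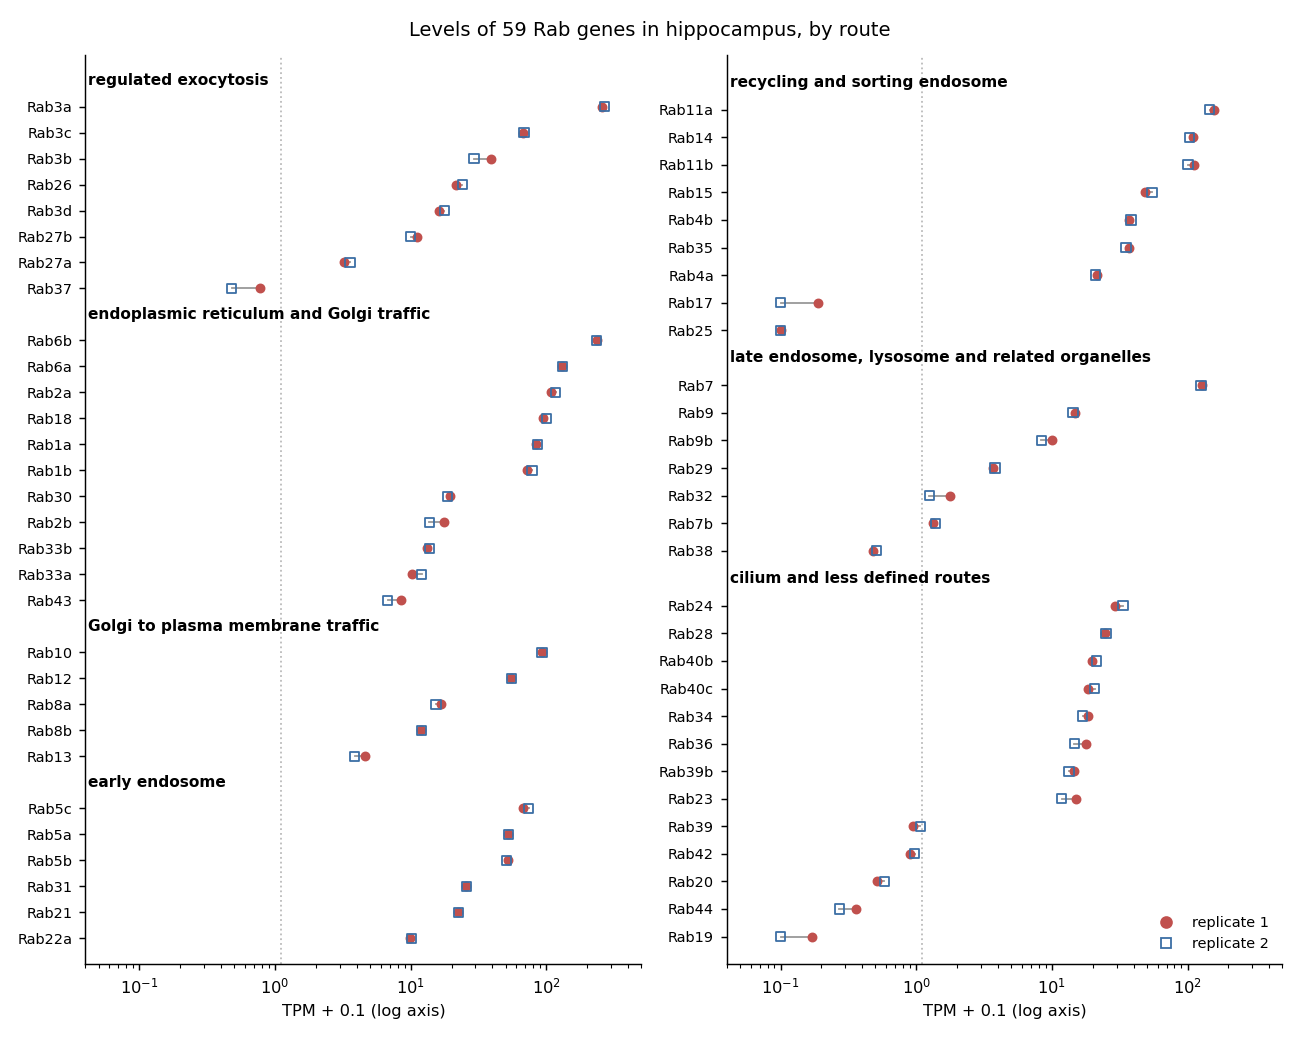
Level of each of the 59 Rab genes, as TPM plus 0.1 on a log axis, in replicate 1 (filled circles) and replicate 2 (open squares), grouped by the membrane route of the member, with the dotted line at a TPM of 1. Rab3a, Rab6b and Rab11a stand at the right, and Rab17, Rab19 and Rab25 lie at the left end, at or near 0.

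Among the Rabs of regulated exocytosis, Rab3a on chromosome 8 (mm10, 70754679 to 70758677, plus strand), the main Rab of synaptic vesicles, was the highest Rab gene, at 255.8 and 269.55 TPM. Rab3c, a second vesicle Rab of neurons, stood at 67.3 and 68.2 TPM, and Rab3b, which also acts on secretory vesicles, at 39.2 and 29.1 TPM. Rab3d, best known from the granules of exocrine cells, was lower, at 16.1 and 17.6 TPM. All 4 Rab3 genes were therefore present, with Rab3a above the other 3 in each library and the order Rab3c, Rab3b, Rab3d holding in both. Rab26, a Rab of secretory granules and of autophagy of synaptic vesicles, stood at 21.4 and 23.9 TPM. Rab27b, which docks secretory granules and exosomes, stood at 10.9 and 9.9 TPM, and Rab27a, known for melanosome transport and cytotoxic granules, at 3.1 and 3.47 TPM. Rab37, a secretory granule Rab, was below a TPM of 1 in both, at 0.68 and 0.38.

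The Rabs of the endoplasmic reticulum and Golgi made up the largest group by level, with 791.7 and 811.3 TPM over 11 genes, or 32.3% and 33% of all Rab TPM, and all 11 reached a TPM of 1. Rab6b, the neuron-enriched form of the Golgi Rab that recruits dynein and kinesin partners, was second of all Rab genes (chromosome 9, 103111787 to 103185276, plus strand), at 234.65 and 235.37 TPM. Its widely expressed relative Rab6a stood at 130.1 and 130.51 TPM. Rab2a, which acts between the endoplasmic reticulum and the Golgi, reached 109 and 117 TPM, and Rab2b 17.4 and 13.6 TPM. Rab18, of lipid droplets and the endoplasmic reticulum, stood at 95.1 and 100.03 TPM. Rab1a and Rab1b, which drive transport from the endoplasmic reticulum to the Golgi, lay close together, Rab1a at 83.2 and 86.1 TPM and Rab1b at 71.55 and 78.1 TPM. Rab30, a Golgi Rab, stood at 19.3 and 18.6 TPM. Rab33b, which binds the autophagy protein Atg16l1, had 13.1 and 13.6 TPM, and its X-linked relative Rab33a had 10.2 and 11.9 TPM. Rab43 was the lowest of the group, at 8.43 and 6.66 TPM. Its leading transcript shares 90.3% of its 31-base words with Gm45140, an annotated gene that overlaps it on the same strand and held 134 and 69.6 counts, so its level is uncertain.

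Of the Rabs that carry Golgi cargo to the plasma membrane, Rab10, which acts in axon membrane addition and insulin-regulated transport, was the highest, at 93.2 and 92.7 TPM. Its relative Rab13, of epithelial tight junctions, had 4.5 and 3.75 TPM. Rab12 stood at 54.4 and 54.9 TPM. Rab8a and Rab8b, which act in polarised and ciliary transport, had 16.7 and 15.3 TPM and 11.87 and 11.92 TPM. Rab10, Rab12 and both Rab8 genes encode known substrates of the kinase Lrrk2.

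The early endosome Rabs included all 3 Rab5 genes, which control endosome fusion through Eea1 and Rabep1, at similar levels. Rab5c had 66.7 and 73.9 TPM, Rab5a 52.4 and 52.6 TPM and Rab5b 51.7 and 50.9 TPM. Rab5a and Rab5b did not differ beyond their spread. Rab31, of the Rab5 subfamily, had 25.5 and 25.6 TPM, Rab21, an integrin-binding member, 22.35 and 22.34 TPM, and Rab22a, which acts on early endosomes, 9.77 and 9.98 TPM.

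The recycling group summed to 519 and 498 TPM. Rab11a on chromosome 9 (64715299 to 64737758, minus strand), the central Rab of the recycling endosome, came after Rab3a and Rab6b among all Rab genes, at 156 and 145 TPM. Rab11b, its brain-enriched relative, had 110.4 and 101 TPM. Rab14, between the Golgi and endosomes, had 109 and 104 TPM. Rab15, a neuronal endosome Rab, had 48.5 and 54.5 TPM, Rab35, of fast recycling and neurite growth, 36.8 and 35 TPM, Rab4b 36.9 and 38.1 TPM and Rab4a, of fast recycling, 21.6 and 20.8 TPM. By contrast the epithelial Rabs of this group had almost no reads. Rab25 had 0 counts in both libraries, which allows up to 3 counts in each, and Rab17 had 1 and 0 counts. The leading transcript of Rab4b shares 82.3% of its 31-base words with other genes, chiefly Gm21983, which held 10.9 and 0 counts, and 56.4 and 63.3 estimated counts in the transcript table estimated directly from reads (the read-based table). That of Rab11b shares 37.7%, chiefly with the pseudogene Rab11b-ps2, which held 25.5 and 81.2 counts in the alignment-based table and 326 and 181 in the read-based table. The levels of Rab4b and Rab11b are therefore uncertain. Under 5% of these words were shared in 49 of the 59 members, and Rab2a, Rab9, Rab5b and Rab7 shared 10.7% to 17.8%, chiefly with pseudogenes, of which Rab7-ps1 held 6.04 and 10.2 counts. The Rab11a transcript Rab11a-206 shared 17.8% with the miRNA gene Gm47308, which held 0 counts in both libraries.

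Late endosome and lysosome Rabs rested on 1 gene. Rab7, which directs late endosome fusion and the transport of neurotrophin receptors, had 127 and 125 TPM, or most of the group's 158 and 154 TPM. Rab9, of late endosome to Golgi transport, had 14.8 and 14.2 TPM and its relative Rab9b 9.93 and 8.26 TPM. Rab29, linked to Parkinson disease in humans, had 3.57 and 3.7 TPM and Rab7b had 1.22 and 1.29 TPM. Rab32 and Rab38, known from melanosomes, had 1.68 and 1.15 TPM and 0.38 and 0.41 TPM.

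The remaining 13 members fall into 2 levels. A TPM of 10 was reached in both libraries by 8 of them. Rab24, linked to autophagy, had 29.3 and 33.3 TPM, Rab28, a ciliary Rab, 24.4 and 24.9 TPM, and Rab34, of cilium formation, 18.5 and 16.7 TPM. Rab40b and Rab40c, which recruit a ubiquitin ligase, had 19.6 and 21.1 TPM and 18.4 and 20.6 TPM. Rab36 had 17.7 and 14.5 TPM. Rab39b, an X-linked gene of intellectual disability and Parkinson disease in humans, had 14.4 and 13.2 TPM. Rab23, a negative regulator of hedgehog signalling, had 15 and 11.7 TPM. The other 5 were below a TPM of 1 in both libraries: Rab39, Rab42, Rab20 and Rab44 lay between 0.17 and 0.97 TPM, and Rab19 had 2 and 0 counts.

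Related Rab genes were next compared within each library, as log2 ratios of TPM plus 0.1, and a pair was called if its sign was shared by both libraries and its mean was over 2 SD in size. With 2 libraries the smallest two-sided exact sign-flip p is 0.5, so that test could not pass 0.05, and no other test of a pair was run. Of 21 pairs, 19 were called, the first gene leading in 14 and the second in 5. Of the 19, 18 had the same call in the read-based table. The order within a pair came from the list, so the split of 14 and 5 holds for that order alone. The rule can call a small gap, such as 1.13-fold for Rab1a over Rab1b. It was not run on pairs of other genes, so the share of those it would call is not known.

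In each family 1 copy usually led. The log2 ratio of Rab3a over Rab3c was 1.95 ± 0.04, over Rab3b 2.95 ± 0.36 and over Rab3d 3.96 ± 0.04, or 3.87-fold, 7.75-fold and 15.5-fold. Rab2a exceeded Rab2b by a log2 ratio of 2.86 ± 0.32, Rab10 exceeded Rab13 by 4.47 ± 0.18, Rab7 exceeded Rab7b by 6.54 ± 0.06 and Rab39b exceeded Rab39 by 3.79 ± 0.22. Rab9 over Rab9b was 0.67 ± 0.14, Rab27b over Rab27a 1.64 ± 0.21 and Rab32 over Rab38 1.59 ± 0.42. The neuron-enriched Rab6b was above the widely expressed Rab6a by 0.85 in both libraries, and by 0.41 ± 0.15 in the read-based table. Rab25 had 0 counts, so its pair with Rab11a has no interpretable ratio, although it is among the 19.

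A few pairs were near balance. Rab1a over Rab1b was 0.18 ± 0.05, or 1.13-fold. Rab5a over Rab5b, at 0.03 ± 0.02, and Rab40c over Rab40b, at −0.06 ± 0.04, were not called, although Rab40c over Rab40b was −0.42 ± 0.05 and called in the read-based table. The second gene led in Rab22a over Rab31, at −1.36 ± 0.02, Rab4a over Rab4b, at −0.82 ± 0.07, Rab11b over Rab11a, at −0.52 ± 0.02, Rab5a over Rab5c, at −0.42 ± 0.10, and Rab33a over Rab33b, at −0.28 ± 0.12. Rab5a over Rab5c was −1.18 ± 0.03 in the read-based table. Rab8a over Rab8b was 0.42 ± 0.09, and 0.14 ± 0.26 in the read-based table, where it was not called.

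The directions of Rab8a over Rab8b and of Rab33a over Rab33b turned when TPM in protein-coding transcripts alone was used, to −0.84 and 0.37. Coding transcripts held 41.4% and 41.5% of Rab8a TPM, against 100% of Rab8b TPM in both libraries, and 64.4% and 63% of Rab33b TPM, against 100% of Rab33a TPM.

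**Figure D2:**
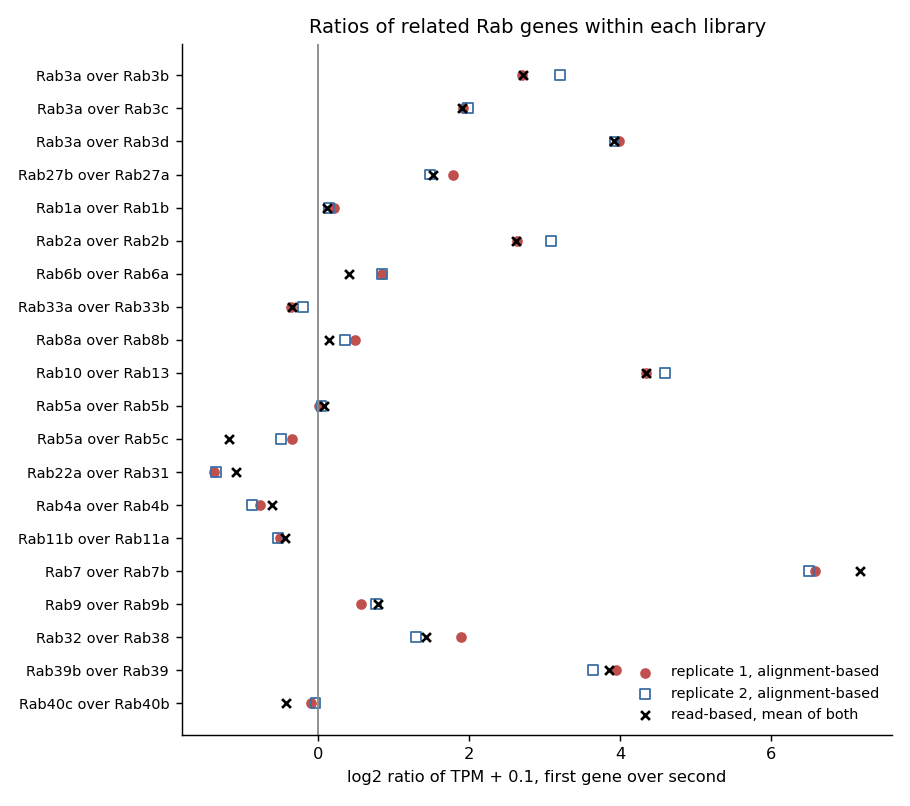
Log2 ratio of TPM plus 0.1, first gene over second, for 20 pairs of related Rab genes, in replicate 1 (filled circles) and replicate 2 (open squares) of the alignment-based table, with the mean of the read-based table as crosses. Rab3a lies right of 0 against each of its 3 relatives, Rab22a over Rab31 lies left of 0, and the cross for Rab5a over Rab5c lies at −1.18, farther left than both other points.

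Replicate 1 was then set against replicate 2 gene by gene. Expected counts were rounded and compared by an exact binomial test, two-sided and conditional on the sum of both libraries, with the probability from TMM effective library sizes (edgeR's scaling) and Benjamini-Hochberg adjustment over 20544 genes with 10 or more counts. A gene was called at an adjusted p under 0.05 and a log2 ratio of 1 or more in size. This test covers counting error between these 2 libraries and has no replicate check. None of the 56 Rab genes tested was called, against 2.83% of all genes (2.26% higher in replicate 1 and 0.574% in replicate 2) and 1.25% of nuclear protein-coding genes (0.789% and 0.466%). By the same test 27 Rab genes had an unadjusted exact p under 0.05 (48.2%), against 35.8% of all genes and 38.7% of nuclear protein-coding genes. The log2 ratios of the 56 ran from −0.52 for Rab38, with 8 and 12 counts, to 0.29 for Rab32. All 46 Rab genes with 200 or more counts summed lay within 1.5-fold, against 98.3% of 12071 protein-coding genes at that depth, and the SD of their log2 ratios was 0.127, against 0.234.

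Small differences past the adjusted p alone were found in 21 Rab genes (37.5%), against 29.9% of nuclear protein-coding genes. Of these 1, Rab3b, was higher in replicate 1 (1.79%, against 10.1%) and 20 were higher in replicate 2 (35.7%, against 19.8%). Rab3b held 1008 and 847 counts and its log2 ratio was 0.28 (counting SE 0.07, adjusted exact p 0.000202). Rab26 had a log2 ratio of −0.32 with 596 and 764 counts, and Rab15 one of −0.32 with 2852 and 3634 counts. The direction of this count rested on the scaling. ERCC spike-in scaling gave 36 Rab genes higher in replicate 1 and 0 in replicate 2 (64.3% and 0%, against 58.4% and 2.04% of protein-coding genes). Total counts gave 5 and 6 (8.93% and 10.7%, against 18.9% and 10.7%). The median log2 ratio of the Rab genes was −0.10 as reported and 0.19 with spike-ins, beside −0.03 and 0.26 for protein-coding genes. The Rab median thus differed from theirs by −0.07. A scaling shifts every gene alike, so this difference is the same on both scalings by construction. Under TMM scaling markers of several cell types moved in the same direction as the 20 Rab genes. Past the adjusted p alone, 11 of 12 myelin markers were higher in replicate 2, with a median log2 ratio of −1.64. The same held for 5 of 8 markers of hippocampal and glutamatergic neurons (median −0.30), 5 of 5 of interneurons (−0.27) and 5 of 6 of astrocytes (−0.21). It also held for 4 of 5 of oligodendrocyte precursors (−0.12) and 4 of 6 of microglia (−0.31). No marker of these lists passed the adjusted p with a higher value in replicate 1. Of the other lists, 2 of 4 endothelial markers (−0.15) and 1 of 4 of choroid plexus (−0.23) were higher in replicate 2. Red blood cell markers had a median of 0.07, with 1 of 5 higher in replicate 1 and 0 in replicate 2. The part of these cell types in the Rab difference was not tested.

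**Figure D3:**
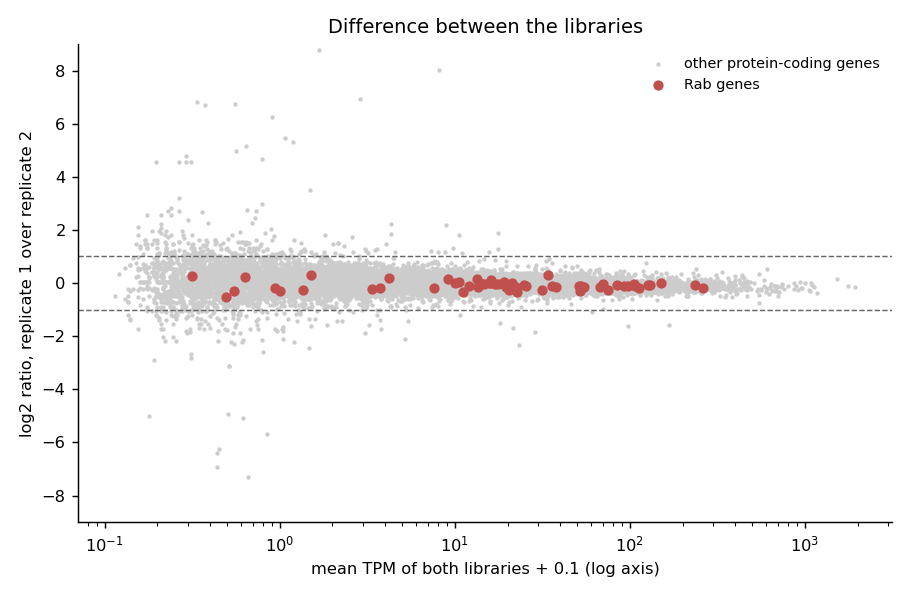
Log2 ratio of replicate 1 over replicate 2 for each protein-coding gene tested, against its mean TPM plus 0.1 on a log axis, with Rab genes in red, other genes in grey and dashed lines at ratios of 1 and −1. All 56 Rab genes tested lie between the dashed lines.

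Genes that load, recycle and read Rab proteins were described from lists of known partners and their relatives. No tested member of the 7 lists was called between the libraries, against 1.25% of nuclear protein-coding genes and 2.83% of all genes. All 7 genes for prenylation and membrane recycling reached a TPM of 1 in both libraries, with a median of 34.3 ± 1.58 TPM. Of nuclear protein-coding genes 59.1% reached that level, which is the share to set beside this and the lists below. Gdi2, a widely expressed GDP dissociation inhibitor, had 156 and 168 TPM. Rabac1, a prenylated Rab acceptor, had 108 and 125 TPM. Rabggtb, a subunit of the Rab geranylgeranyl transferase, had 35.4 and 33.1 TPM.

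All 26 guanine nucleotide exchange factors reached a TPM of 1, with a median of 13 TPM. Madd, which activates Rab3 proteins, led at 78.7 and 76.4 TPM, ahead of Dennd5a, an activator of Rab39 proteins, at 61.1 and 67.6 TPM, and of Gapvd1, of the early endosome, at 50.04 and 44.6 TPM. All 28 GTPase-activating proteins reached it too, with a median of 23.2 TPM, led by Rabgap1l at 82.4 and 80.7 TPM. Tbc1d16, at 48.5 and 42.4 TPM, and Tbc1d9, at 45.25 and 44.4 TPM, came next and differed in order between the libraries.

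Of the 15 Rab3 and Rab27 effectors and their relatives, 8 reached a TPM of 1 in both libraries, beside 59.1% of nuclear protein-coding genes. The median of the 15 was 1.89 ± 0.09 TPM, against 3.76 ± 0.269 TPM for nuclear protein-coding genes. Rims1, the active zone scaffold that binds Rab3, had 87.2 and 87.4 TPM, Rph3a, rabphilin, 60.9 and 65.9 TPM, Rims2 35.8 and 32.3 TPM and the calcium sensor Doc2a 23.6 and 17.4 TPM. Of the 21 endosomal and recycling effectors 20 reached a TPM of 1. The myosins Myo5b and Myo5a, motors of recycling endosomes, had 98 and 112 TPM and 87.5 and 84 TPM, and the Rab11 effector Rab11fip4 had 65.2 and 69.2 TPM. All 15 Golgi and carrier effectors reached it, among them Erc1, a Rab6 partner at the cortex, at 49.8 and 42.8 TPM and Gorasp2, a Golgi stacking protein, at 45.6 and 46.75 TPM. Of the enzymes that phosphorylate Rabs or reverse it, Lrrk2 had 6.12 and 5.27 TPM and Lrrk1 1.48 and 1.73 TPM, while Ppm1h, a phosphatase of Lrrk2 sites, had 32.5 and 33 TPM. Pink1, a kinase upstream of Rab8a phosphorylation, had 56.1 and 62.03 TPM.

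Transcript tables were used to see which forms carried these levels. The leading transcript was protein-coding in both libraries for 48 of the 50 detected Rab genes (96.0%), against 90.6% of protein-coding genes, and the median share of a gene's TPM in coding transcripts was 94.3% and 97.1%, against 87.7% and 90.3%. The exceptions were Rab8a, where the retained-intron transcript Rab8a-202 held 55.6% and 58.5% of TPM, and Rab3d, where the retained-intron transcript Rab3d-205 led in replicate 2 with 48.7%. In the read-based table both were led by coding transcripts, Rab8a by Rab8a-201 with 54.4% and 67.6% and Rab3d by Rab3d-203 with 40.7% and 41.6%, while Rab3d-205 held 4.6% and 0%. That table also gave 48 genes, and its exceptions were Rab23, led by the retained-intron transcript Rab23-208 with 44.9% and 37.7%, and Rab11b, led in replicate 1 by the processed transcript Rab11b-205 with 39.8%. In the alignment-based table Rab23 held 32.6% and 34.9% of its TPM in coding transcripts. The same transcript led in both libraries for 45 genes, and in both libraries and both tables for 34.

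Rab11a showed how the form assigned depended on the table. In the alignment-based table the 462-base transcript Rab11a-206, whose printed end lacks a cysteine codon, held 46.7% and 44.7% of Rab11a TPM, and the 2336-base Rab11a-208 held 45.4% and 45.2%. In the read-based table Rab11a-206 held 10.4% and 14.6% and Rab11a-208 30.5% and 30.4%. The share of molecules that would encode a protein with the lipid site therefore cannot be read from these tables.

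Levels were also compared between the tables, which were estimated from the same reads. Read-based TPM was at least 2-fold above alignment-based TPM in both libraries for 7 of 50 Rab genes (14.0%), against 9.02% of protein-coding genes (9.3% in either direction), and for no Rab gene was it 2-fold lower. These were Rab6a, Rab7, Rab14, Rab11b, Rab18, Rab5c and Rab34. Rab7, for example, stood at a log2 ratio of 1.28 in both libraries, and Rab5c at 1.35 and 1.29. The median log2 ratio of protein-coding genes was itself 0.65, and relative to that median no Rab gene was 2-fold apart, the largest mean relative log2 ratio being 0.67, for Rab5c. The 7 genes had 24.3% to 73.3% of their read-based TPM in replicate 1, and 25.1% to 78.1% in replicate 2, in transcripts shorter than 750 bases. In the alignment-based table the median share was 3.34% and 8.69%. Among the other 43 Rab genes the median read-based share was 0.00163% and 0%, and the highest was 69.5% and 69.6%, in Rab11a. Rab11a lay at the 2-fold bound, with log2 ratios of 0.9996 in replicate 1 and 1.03 in replicate 2. A large share also occurred in genes farther below that bound, such as Rab8a, with 45.6% and 32.4%, and Rab3d, with 42.5% and 39.2%. Rab7-207, of 550 bases, held 41.3% and 38.2% of read-based Rab7 TPM and 5.01% and 5.47% of its alignment-based TPM. Rab5c-203, of 441 bases, held 48.9% and 41.9% of read-based Rab5c TPM and 1.05% and 0.541% of its alignment-based TPM.

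**Figure D4:**
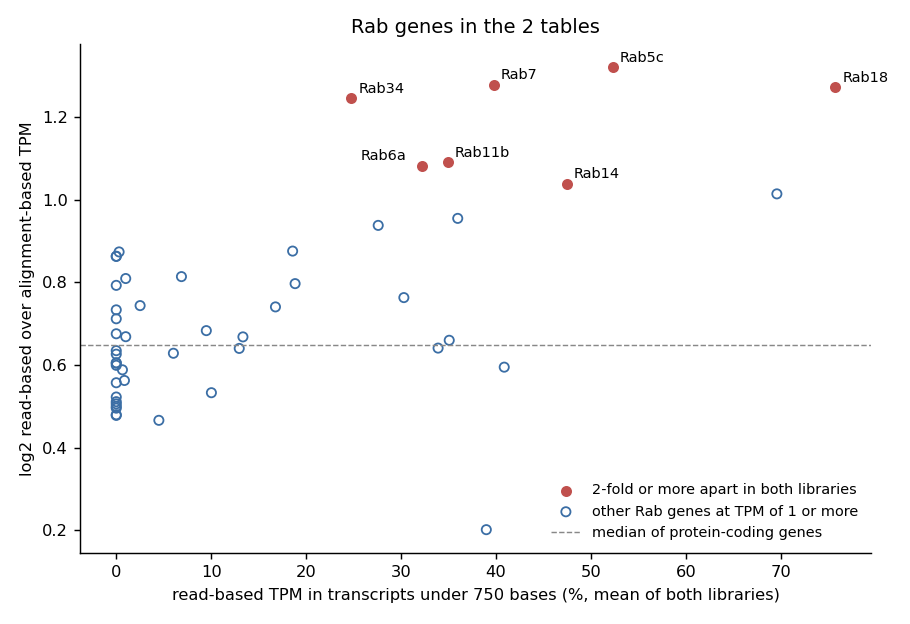
Log2 ratio of read-based over alignment-based TPM against the percent of read-based TPM in transcripts under 750 bases, each the mean of both libraries, for 50 Rab genes, with the dashed line at the median of protein-coding genes. The 7 genes at least 2-fold apart (filled) lie above the dashed line, and each has 24.3% or more of its replicate 1 read-based TPM in short transcripts.

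Promoter sequence was available for 48 of the 59 members from RefSeq (GRCm38.p6), as 300 bases from 250 before to 50 after an annotated start, taking the entry nearest to the leading transcript; 39 of these starts lay within 100 bases of that transcript's 5′ end. The 250 bases before the start are shown for 2 high members and for 2 members at or near 0 counts, with each CG dinucleotide, the site of DNA methylation, in capitals and on the strand of the gene.
Rab3a (mm10 chr8:70754453-70754702, plus strand): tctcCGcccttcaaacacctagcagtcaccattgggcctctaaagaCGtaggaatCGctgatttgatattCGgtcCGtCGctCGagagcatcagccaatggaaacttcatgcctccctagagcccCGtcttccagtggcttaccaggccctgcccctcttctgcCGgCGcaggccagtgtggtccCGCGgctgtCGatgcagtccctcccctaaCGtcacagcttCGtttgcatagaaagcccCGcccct
Rab10 (mm10 chr12:3309970-3310219, minus strand): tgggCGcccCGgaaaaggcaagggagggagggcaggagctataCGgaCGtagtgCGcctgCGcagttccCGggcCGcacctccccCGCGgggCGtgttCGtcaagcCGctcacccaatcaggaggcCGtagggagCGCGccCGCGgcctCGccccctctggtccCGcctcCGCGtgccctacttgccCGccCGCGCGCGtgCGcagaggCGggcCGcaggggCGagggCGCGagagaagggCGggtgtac
Rab17 (mm10 chr1:90967668-90967917, minus strand): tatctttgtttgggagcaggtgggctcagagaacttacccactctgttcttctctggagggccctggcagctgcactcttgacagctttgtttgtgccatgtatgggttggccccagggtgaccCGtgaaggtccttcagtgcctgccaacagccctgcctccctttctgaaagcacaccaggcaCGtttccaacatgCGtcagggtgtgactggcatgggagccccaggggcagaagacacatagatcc
Rab25 (mm10 chr3:88548280-88548529, minus strand): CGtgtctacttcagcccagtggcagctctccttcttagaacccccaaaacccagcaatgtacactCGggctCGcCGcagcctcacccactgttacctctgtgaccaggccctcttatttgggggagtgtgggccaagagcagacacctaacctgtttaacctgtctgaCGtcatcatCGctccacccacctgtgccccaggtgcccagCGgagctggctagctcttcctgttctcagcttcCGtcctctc

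The 250 bases held 16 CG in Rab3a, 34 in Rab10, 3 in Rab17 and 8 in Rab25. The Rab17 entry was chosen by Rab17-205, a processed transcript at 0.09 and 0 TPM. The coding transcript Rab17-204 begins beside this entry, at base 90967667, but the coding transcript Rab17-201 begins farther upstream, at base 90969661. The CG count for Rab17 may therefore not be that of every start of the gene. Over the full 300 bases the median was 23 CG in the 48 Rab promoters, against 14 in 16539 protein-coding genes, and 10 or more CG were present in 85.4% against 59.7%. Among the 35 Rab genes that reached a TPM of 10 in both libraries the median was 25, against 23 in protein-coding genes at that level, and among the 6 below a TPM of 1 in both it was 9, against 3. Rab33a and Rab9, with 7 and 9 CG, were transcribed at a TPM of 10 or more, and Rab39, with 27 CG, was below 1. No methylation was measured, and the count is a description of the sequence.

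**Figure D5:**
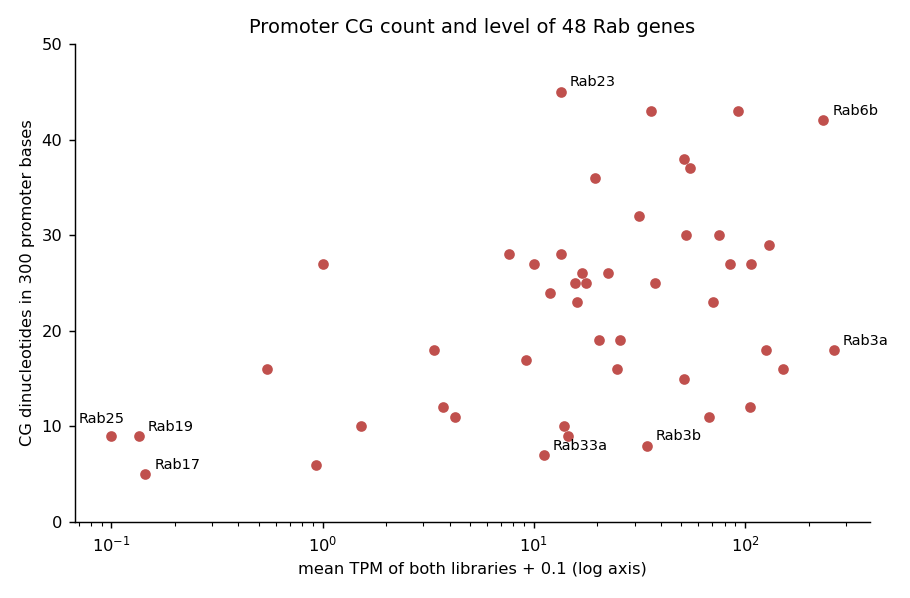
CG dinucleotides in 300 promoter bases against mean TPM plus 0.1 on a log axis for 48 Rab genes, each point a gene. Rab17, Rab19 and Rab25, at the left, have 5 to 9 CG, while Rab6b and Rab3a, at the right, have 42 and 18, and the nearest promoter entries for Rab3b and Rab23 start 11220 and 14109 bases from the leading transcript.

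Reads shared with overlapping genes limit some levels. A gene with 10 or more counts overlapped 18 of the 59 members, on the same strand for 9 and on the opposite strand for 12. Mpv17l2, opposite Rab3a, held 356 and 468 counts beside the 6727 and 7793 counts of Rab3a, and Rab10os, opposite Rab10, held 921 and 776 counts beside 6573 and 7173. Some opposite neighbours held more counts than the member. Prelid1, opposite Rab24, held 1980 and 2364 counts beside 698 and 846 for Rab24. Tox4, opposite Rab2b, held 1614 and 1894 counts beside 695 and 718 for Rab2b. Traf7, on the strand of Rab26, held 1343 and 1330 counts beside 596 and 764 for Rab26. Whether reads were counted by strand is not stated, and the levels of these members, and pair ratios that use them, are uncertain to that extent.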

How the data were processed

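Total RNA of 2 hippocampus libraries, replicates 1 and 2 of 1 group, was analysed. Per the text files deposited beside the tables, build mm10 and annotation M21 were used; the programs, their versions and whether strand was used are not stated there. The deposited expected counts are estimated reads per gene, the deposited TPM is scaled so that all entries of a library, ERCC included, have the same sum, and the deposited FPKM, used in 1 alternative, is scaled by length and read number. A gene and transcript table derived from transcriptome alignments was called alignment-based, and a second transcript table, with estimated counts deposited by the authors, read-based and was summed per gene.

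The members, gene lists, pairs and tests were chosen with earlier results of these data known. Values per library were given for the 35 highest members, pair members, members apart between tables or at 0 counts, and up to 4 genes per partner list and 2 per marker list with the highest mean TPM; those of Rab23, Rab29, Rab37 and Rab43, and of genes that overlap a member or share its sequence were added after their values were seen. A gene of the partner lists that this rule selects is not reported here. Rules stand beside each result; expected counts were rounded for the exact test, and ratios had 0.5 counts added. edgeR and DESeq2 gave scaling factors alone, since 1 group allows no fit with a contrast. The library test was tested on simulated data with counting error alone, so that check does not cover spread between pools. Limits from counts cover counting error only. Software was R 4.3.3, edgeR 4.0.16, DESeq2 1.42.0, Python 3.11.15, scipy 1.17.1 and pandas 2.3.3. The planned protein identity was not run, as no protein table was used here.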

Additional observations from a re-analysis of the deposited data

How the results depend on the processing

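The 50 Rab genes at a TPM of 1 or more became 48 to 52 over 7 alternatives, the 48 genes with a coding leading transcript became 43 to 49 over 4, and the 19 called pairs became 19 or 20 over 4. No Rab gene was called between the libraries under 7 other scalings, filters, thresholds or tables. The median Rab level of 18.6 TPM moved to 30.7 in the read-based table, 16.5 with protein-coding transcripts only, 20.1 with genes of 10 or more counts and 12.9 as FPKM; without 1 replicate it was 18.5 or 18.6. The Rab share of 0.548% moved to 0.583% in the read-based table and 0.617% with protein-coding transcripts only, and was 0.543% or 0.552% without 1 replicate. The 7 Rab genes apart between the tables became 4 with protein-coding transcripts only, 7 or 8 without 1 replicate, and 0 when counted 2-fold beyond the median shift of protein-coding genes, an alternative chosen after seeing the data. Rab8a over Rab8b reversed to −0.84 and Rab33a over Rab33b to 0.37 with protein-coding transcripts only; the cause was not tested. Of 84 pair values under alternatives that use both libraries, 79 kept direction and call. All 42 values from 1 library kept the sign of the mean, which the call rule already required of the 19 called pairs. All genes called between the libraries numbered 582, and 1276 with spike-in scaling, 157 at 100 or more counts and 1176 at a log2 ratio of 0.58. Pair calls need both libraries, so they could not be counted without 1 replicate. The planned protein identity and its gap penalty alternative were not run. No paired analysis was possible because the study has 1 group. Depth limits the 9 Rab genes under a TPM of 1, which held 0 to 63 counts per library.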
